A study of Mus musculus with 6 samples.

Results

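Open chromatin was measured at imprinted gene loci in preadipocytes, the fibroblast-like precursors of fat cells, from inguinal white adipose tissue of mice. The loci were the gene bodies of 38 named imprinted genes, each with 10 kb on either side, out of 55450 genes in the GENCODE M21 annotation of the mm10 genome. All 38 genes were found in the annotation. Every listed summit inside these loci was taken, a summit being a point where sequenced Tn5-cut fragments pile up most. This gave 457, 473 and 457 summits in the WT libraries and 465, 466 and 461 in the DKO libraries. The whole list of each library held 299433 to 299620 summits. Summits were gathered into windows of about 0.5 kb, and 285 of the 179248 windows of the series lay at these loci, with 45 of the 285 lying within reach of more than 1 gene. Another 3 windows, in control regions farther than 10 kb from their genes, were described with them.

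The 2 groups were WT (wild type) and DKO (no Hmgn1 and no Hmgn2), with 3 ATAC-seq libraries each. The labels of both give C57BL/6 as the strain, and the study's reporting summary names the DKO line B6.Cg-Hmgn2tm1.1Mbus Hmgn1tm1Mbus/Mmjax. HMGN1 and HMGN2 are small nucleosome-binding proteins found throughout the chromatin of most cells. Cells came from mice 8 to 12 weeks old, were grown on collagen-coated plates and were collected at day 0, before the differentiation mixture was added. None of the labels says that libraries of a genotype came from separate animals or cultures, so the p-values here measure the spread between these libraries, which may be technical. Both alleles of an inbred strain have the same sequence, so maternal and paternal chromatin could not be told apart, and each value is a sum over both.

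Imprinted genes are transcribed mainly or only from the copy inherited from one parent. Most lie in clusters that share a control region, whose DNA is methylated on one parental allele in the germ line and stays so in body tissues. Methylation at such a region keeps zinc finger protein ZFP57 and its partner TRIM28 bound to the methylated allele, while the other allele is open to factors such as CTCF or serves as the promoter of a long non-coding RNA that silences its neighbours. Several of these genes act in growth and in fat: Dlk1 (also called preadipocyte factor) is a Notch-like membrane protein that holds back adipocyte differentiation, Igf2 is a growth factor, Plagl1 and Peg3 are zinc finger transcription factors, Mest encodes a protein of the hydrolase family, and Grb10 is an adaptor that dampens insulin signalling.

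The sequences that carried the measured sites are given first, from the GRCm38 assembly (the sequence of mm10). The control region upstream of H19 is where CTCF binds on the maternal allele and separates Igf2 from the enhancers behind H19. A search of both strands from 2 to 4 kb upstream of the H19 start, for the CTCF site form of this region, found 3 sites, all on the same strand as H19. They are shown with the 14-base core in capitals and named by their distance in bp from the H19 start.
H19 site 2172 (chr7:142580303-142580328, minus strand): acgatgCCGCGTGGTGGCAGtacaat
H19 site 2627 (chr7:142580758-142580783, minus strand): atgctaCCGCGCGGTGGCAGcatact
H19 site 3897 (chr7:142582028-142582053, minus strand): gagttgCCGCGTGGTGGCAGcaaaat
This core is rare: 24 of all 179248 windows held it, 0.0134%, and 2 of these 24 were the windows of the H19 control region.

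In the first intron of Peg3 the paternal allele is open and carries a row of sites for YY1, a zinc finger protein. The heptamer CCATNTT occurred 15 times on the gene's strand and 0 times on the other in the first 4 kb of Peg3. The 4 windows in this stretch held 10 of them, which are shown with the heptamer in capitals and named by their distance in bp from the Peg3 start.
Peg3 site 839 (chr7:6729580-6729604, minus strand): cagttggcgCCATCTTggagggtgg
Peg3 site 945 (chr7:6729474-6729498, minus strand): cgcttggcgCCATCTTgaaatgacc
Peg3 site 1548 (chr7:6728871-6728895, minus strand): atcctggcgCCATCTTtcctggcca
Peg3 site 1689 (chr7:6728730-6728754, minus strand): accctgacgCCATCTTtgctggctg
Peg3 site 1977 (chr7:6728442-6728466, minus strand): aatttggcgCCATCTTtgccagcaa
Peg3 site 2165 (chr7:6728254-6728278, minus strand): ctgaaggtgCCATTTTgattgacag
Peg3 site 2464 (chr7:6727955-6727979, minus strand): cacctgacgCCATCTTtgctgacgt
Peg3 site 2494 (chr7:6727925-6727949, minus strand): gtgcagtagCCATCTTgaatgacag
Peg3 site 2583 (chr7:6727836-6727860, minus strand): acctgggcgCCATCTTtacttgtca
Peg3 site 3005 (chr7:6727414-6727438, minus strand): cctctggcgCCATCTTtgttggcca
One such heptamer or more, on either strand, was found in 27.7% of the windows at the imprinted loci and in 27.8% of all windows.

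ZFP57 reads the methylated hexamer TGCCGC. That hexamer, on either strand, was found in 43 of the 285 windows (15.1%), against 8.03% of all windows. Windows at the imprinted loci also lay more often within 1 kb of a transcription start (24.2% against 16.9% of all windows) and had a median of 7 CpG against 6. Copies in 3 control regions are shown, each stretch centred on a window, with TGCCGC on the printed strand in capitals.
IG-DMR (chr12:109528280-109528480, plus strand): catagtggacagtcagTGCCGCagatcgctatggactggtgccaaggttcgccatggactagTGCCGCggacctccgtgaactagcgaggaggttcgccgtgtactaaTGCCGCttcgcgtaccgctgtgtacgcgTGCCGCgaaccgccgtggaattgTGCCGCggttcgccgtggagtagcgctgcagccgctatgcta
Rasgrf1 upstream region (chr9:89879725-89879925, plus strand): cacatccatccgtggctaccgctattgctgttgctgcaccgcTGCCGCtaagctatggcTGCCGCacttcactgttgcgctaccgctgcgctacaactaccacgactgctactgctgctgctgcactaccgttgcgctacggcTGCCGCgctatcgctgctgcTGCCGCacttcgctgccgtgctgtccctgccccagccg
Snrpn promoter region (chr7:60004379-60004579, minus strand): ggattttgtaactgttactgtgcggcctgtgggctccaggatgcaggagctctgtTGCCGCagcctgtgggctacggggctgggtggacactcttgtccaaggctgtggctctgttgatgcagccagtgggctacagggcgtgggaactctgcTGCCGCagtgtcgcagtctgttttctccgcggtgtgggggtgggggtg
The IG-DMR lies between Dlk1 and Meg3, the Rasgrf1 region upstream of a Ras exchange factor gene, and the Snrpn region at the start of the gene that anchors the Prader-Willi cluster.

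The promoters of Inpp5f, Zim1 and Kcnq1ot1 are shown next because they had the highest folds, and that of Airn as the start of a silencing RNA. Capitals mark the CCAAT box of NF-Y in Kcnq1ot1, the pair of ZNF143-type sites (one on each strand) in Zim1, the GC box GGGCGG of SP1-type factors in Inpp5f and each CpG in Airn.
Kcnq1ot1 promoter (chr7:143296553-143296753, minus strand): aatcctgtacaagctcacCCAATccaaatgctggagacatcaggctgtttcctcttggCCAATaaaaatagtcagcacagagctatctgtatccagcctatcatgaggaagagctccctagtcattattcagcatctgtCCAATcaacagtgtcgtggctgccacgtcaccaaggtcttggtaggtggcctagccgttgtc
Zim1 promoter (chr7:6696463-6696613, minus strand): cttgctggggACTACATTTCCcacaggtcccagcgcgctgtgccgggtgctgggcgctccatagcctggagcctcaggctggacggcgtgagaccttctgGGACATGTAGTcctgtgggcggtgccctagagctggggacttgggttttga
Inpp5f promoter (chr7:128611174-128611324, plus strand): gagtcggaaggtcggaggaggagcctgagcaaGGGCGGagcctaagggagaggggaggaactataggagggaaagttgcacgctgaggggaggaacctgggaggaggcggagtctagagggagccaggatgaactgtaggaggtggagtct
Airn promoter (chr17:12741243-12741443, plus strand): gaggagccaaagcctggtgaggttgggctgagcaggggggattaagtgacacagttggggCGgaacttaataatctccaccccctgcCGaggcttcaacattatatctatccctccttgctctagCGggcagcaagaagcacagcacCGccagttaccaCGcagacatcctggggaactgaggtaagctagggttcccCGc
CCAAT was found in 46.3% of the 285 windows and 49.3% of all windows, GGGCGG in 24.9% and 16.4%, and the ZNF143-type site in 1.05% and 0.788%. These last 3 searches, and that for the AP-1 heptamer further on, were chosen after the sequences had been seen.

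The values compared are fold enrichments and ranks. A fold enrichment is the height of the pileup at a summit over the local background, as the peak caller computed it. Rank 1 is the summit with the smallest p in its library. None of the 285 windows differed between genotypes at an adjusted p under 0.05 (limma with Benjamini-Hochberg adjustment over all windows), with 0 lower in DKO where 0.0357% of all windows were lower, and 0 higher where 0.0234% of all windows were higher. The smallest adjusted p at these loci was 0.163. At an unadjusted p under 0.05 there were 8 windows lower in DKO, 2.81% of the 285 against 6.1% of all windows, and 13 higher, 4.56% against 5.68%. The values of WT and DKO did not overlap in 35 windows (12.3%), where 16.4% of all windows did not.

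The direction was mixed. The log2 change (DKO minus WT, on quantile-normalized fold enrichment) was below 0 in 130 windows and above 0 in 155, with a median of 0.03 at the loci and 0.01 over all windows. Its size had a median of 0.21 at the loci and 0.24 over all windows. For windows with a summit in all 6 libraries, 157 of the 285, the unadjusted 95% interval of the change reached a median of 0.44 to either side. Changes smaller than this were not detectable in most windows. The adjusted test could miss larger ones too: the Plagl1 promoter, at 0.62, had an adjusted p of 0.163 (limma). The absence of calls therefore does not exclude such changes.

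**Figure D1:**
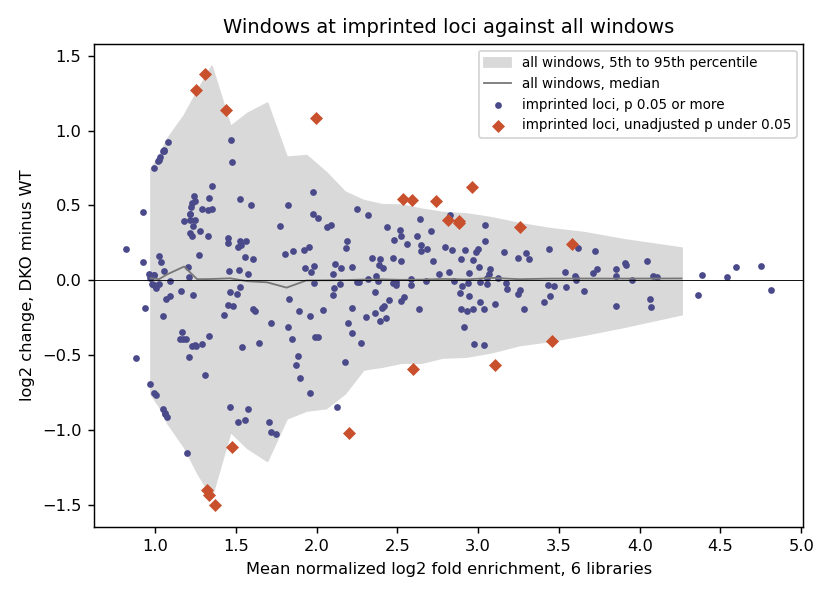
Change between genotypes against level for the 285 windows at the imprinted loci. The x axis is the mean normalized log2 fold enrichment over the 6 libraries and the y axis the log2 change, DKO minus WT; the grey band holds the 5th to 95th percentile of all 179248 windows and the grey line their median, blue points are windows of the loci, and orange diamonds are the 21 with an unadjusted p under 0.05. The points spread on both sides of 0, as the band does, and widen toward low levels.

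The number of summits at the loci overlapped between genotypes. Each list held nearly the same total, 299433 to 299620 summits, while the peak caller's lowest −log10 p ran from 3.545 in DKO3 to 5.63 in WT3. Such counts cannot show a general gain or loss of sites. WT libraries listed 462 ± 9.24 summits at the loci (SD, n = 3) and DKO libraries 464 ± 2.65 (SD, n = 3), with p = 0.8 by a two-sided exact permutation test over libraries, for which 3 against 3 cannot go below 0.1. A summit that is absent from a list was below that list's limit, and the site need not have been closed. At Hmgn2, a targeted gene, the lists followed the labels. A window 1433 bp from the start was listed in WT only, at 7.28, 5.79 and 7.39. Another, 648 bp from the start, had fold enrichments of 7.89, 7.53 and 9.45 in WT and was listed in no DKO library. Its DKO values in the fit are the list floor, so its adjusted p = 0.0312 (limma) is not read as evidence. The call at 648 bp was also lost in the limma fit with no scaling (adjusted p = 0.0511), with the replicate block (0.339) and with any 1 library left out (0.199 to 0.273). The Hmgn1 promoter stayed listed in all 6, with an unadjusted p = 0.323 in the limma fit. A second Hmgn1 window, 856 bp from the start, had folds of 3.75, 3.35 and 3.15 in WT. In DKO it was listed in DKO1 and DKO2 at 2.90 and 2.59 (unadjusted p = 0.366, limma). No source used here says which part of that gene was deleted.

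Markers of the cells were checked at their promoters. Of 9 preadipocyte markers, 8 had a promoter window, all listed in all 6 libraries, among them Pdgfra and Cd34, while none of the 3 mature adipocyte markers (Adipoq, Plin1, Lep) had one. Of the leukocyte markers 3 of 4 had a window, with Ptprc at none, and their summed fold enrichment was 9.16 to 9.84 in WT and 8.98 to 13.9 in DKO. All 3 endothelial markers had one, with sums of 17.9 to 25.4 in WT and 20 to 25 in DKO. The Cdh5 window was listed in the 3 DKO libraries only (log2 change 1.76, unadjusted p = 0.000702 and adjusted p = 0.142, limma). Its 3 WT values are the list floor, so neither p is evidence of a change. The Pecam1 window had folds of 16.9, 12.2 and 17.2 in WT and 11.1, 11.8 and 10.3 in DKO (unadjusted p = 0.0186, limma). Epithelial markers had 1 window of 3 genes, with Epcam and Krt18 at none. The part of these cells in the results at imprinted loci was not tested.

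Promoters of the imprinted genes covered a wide range of openness. Starts are those of the transcripts in the basic set of the annotation, and a few genes, Impact and Plagl1 among them, have a transcript outside that set with a start farther upstream. Of the 38 genes, 30 had a window within 1 kb of an annotated start, and these were 29 different windows, since Peg10 and Sgce share one. H19, Igf2, Mirg, Usp29, Kcnq1, Ndn, Nnat and Zdbf2 had none. Windows were listed in all 6 libraries at 19 of the 29. None passed the test, 13 had a log2 change below 0 and 16 above, and the median change was 0.10, beside 0.08 for the 22113 start-proximal windows of the genome listed in all 6 libraries. The median fold enrichment of the 19 was 7.38, 6.78 and 9.67 in WT and 6.47, 7.84 and 7.80 in DKO, and that of the genome's start-proximal windows 8.45, 7.68 and 9.71 in WT and 8.14, 8.43 and 7.77 in DKO.

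**Figure D2:**
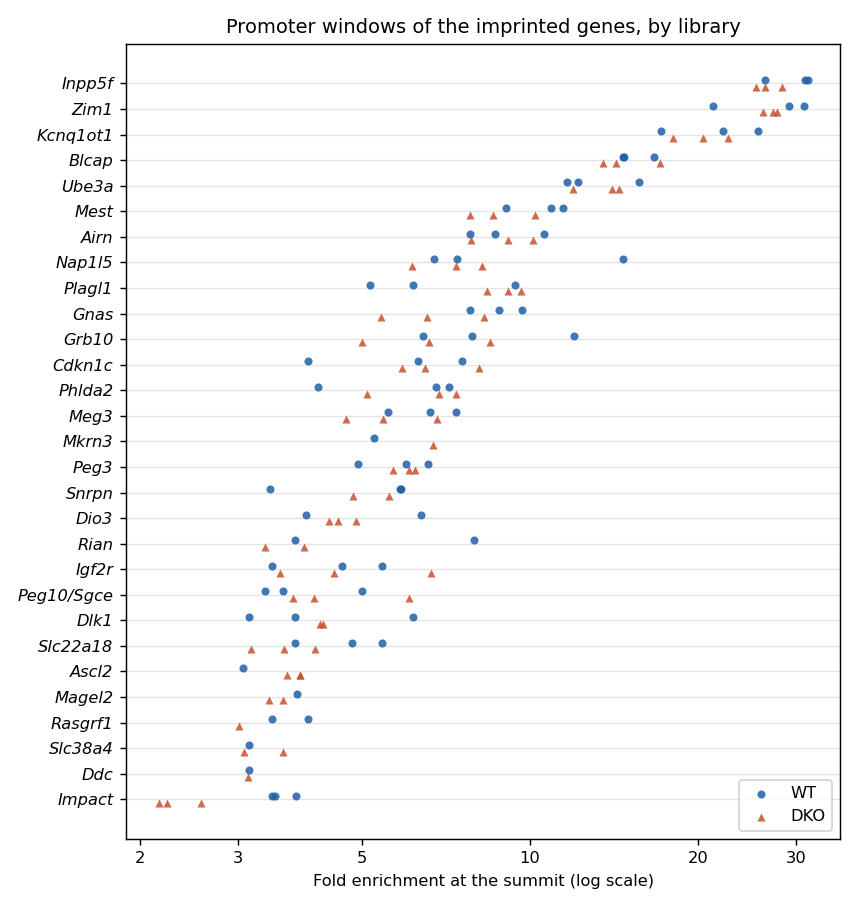
Fold enrichment at the summit (log scale) in the promoter window of each imprinted gene that had one. Blue circles are the 3 WT and orange triangles the 3 DKO libraries, and a library that listed no summit in the window has no point. Inpp5f, Zim1 and Kcnq1ot1 sit at the top in all 6 libraries, between 17.1 and 31.5, and the genotypes mix in most rows.

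**Figure D3:**
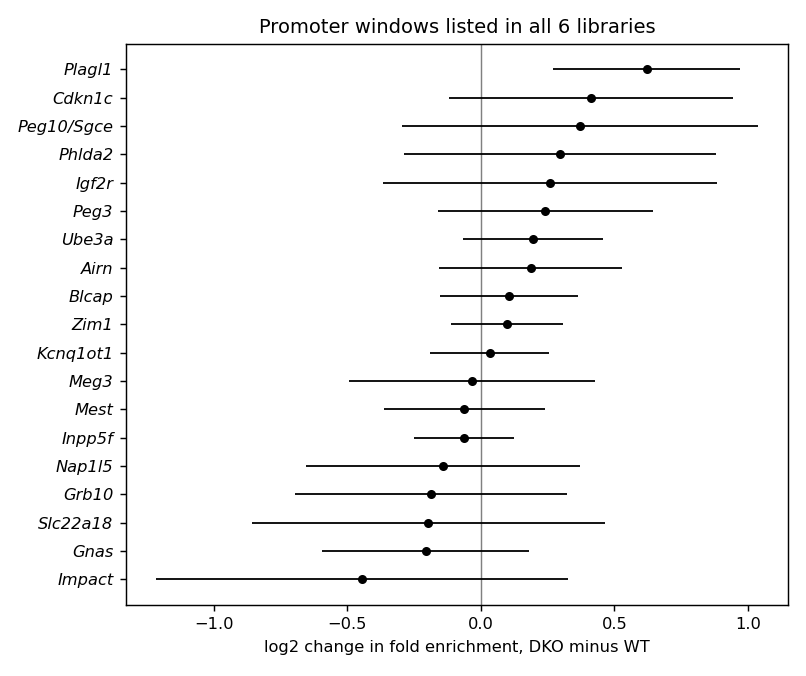
log2 change in fold enrichment, DKO minus WT, at the 19 promoter windows listed in all 6 libraries. Points are the limma estimates and bars their 95% intervals. Only the Plagl1 interval, 0.27 to 0.97, leaves out 0, and its adjusted p was 0.163 over all windows.

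The site with the best mean rank of all loci was the promoter of Inpp5f, a phosphoinositide phosphatase gene, at chr7:128610999-128611499, 111 bp upstream of its start. Its fold enrichment was 31.1, 26.3 and 31.5 in WT and 26.4, 28.3 and 25.4 in DKO, from pileups of 168 to 325 fragments. Its rank was 176, 382 and 339 in WT and 949, 645 and 709 in DKO, so every DKO library ranked it lower although the fold enrichments overlapped, and the log2 change was -0.06 with a 95% interval of -0.25 to 0.13, or -0.026 without WT1 and -0.099 without WT3. The best rank of a locus did not overlap between genotypes for 6 of the 36 genes with a rank in every library (16.7%), where 19.7% of 35266 genes did not. These were Inpp5f, Magel2 and Peg10 with better ranks in WT, and Cdkn1c, Slc22a18 and Rasgrf1 with better ranks in DKO, where Cdkn1c and Slc22a18 shared the same best summit in each library but WT2.

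The imprinted transcript of Inpp5f starts inside the gene. That start had 2 windows. The one 28 bp upstream of it (chr7:128688211-128688711, 37 CpG) had fold enrichments of 6.41, 5.38 and 7.05 in WT and 5.31, 8.65 and 5.37 in DKO. These overlapped, with DKO2 the highest of the 6, and every library was below its own value at the main promoter. The other, 398 bp downstream of the first annotated inner start, was listed in 5 libraries, with folds from 3.20 to 4.96.

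Zim1, a zinc finger gene next to Peg3, had the promoter with the next best mean rank (chr7:6696288-6696788). Its fold enrichment was 29.2, 21.3 and 31.0 in WT and 27.7, 27.3 and 26.2 in DKO, and the log2 change of 0.10 had an interval of -0.11 to 0.31. WT2 was the lowest library and WT3 the highest, so the DKO values lay inside the WT range. In DKO1 and DKO3 its fold was above that of Inpp5f, and without WT2 the change was 0.019.

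Kcnq1ot1 is the long non-coding RNA, transcribed from the paternal allele against Kcnq1, that silences the cluster with Cdkn1c and Phlda2. Its promoter window (chr7:143296403-143296903, in an intron of Kcnq1) lay 104 bp upstream of the start, and the printed stretch of it held 3 CCAAT boxes. Fold enrichment was 22.2, 17.1 and 25.6 in WT and 20.4, 22.6 and 18.0 in DKO, from pileups of 98 to 200. The genotypes overlapped fully, and the log2 change was 0.03 with an interval of -0.19 to 0.26. A weaker window 788 bp into the transcript, richer in CpG (37 against 16), had folds of 4.95, 3.71 and 4.72 in WT and 3.15, 3.67 and 3.46 in DKO. Its change was -0.23 with an interval of -0.84 to 0.37.

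At their starts Cdkn1c, Phlda2 and Slc22a18, which lie in the cluster that Kcnq1ot1 silences, had lower folds than the Kcnq1ot1 promoter. Cdkn1c, an inhibitor of cyclin-dependent kinases, had folds of 4.00, 6.31 and 7.56 in WT and 6.47, 8.09 and 5.90 in DKO 40 bp upstream of its start (log2 change 0.41, interval -0.12 to 0.94, and 0.16 without WT1). Phlda2, a growth-restraining gene of the placenta, ranged from 4.16 to 7.14 in WT and from 5.10 to 7.37 in DKO. Slc22a18, a transporter gene, ranged from 3.79 to 5.43 in WT and from 3.16 to 4.12 in DKO. The ranges of the genotypes overlapped in all 3 genes. Ascl2, a basic helix-loop-helix factor of the trophoblast, had a window 665 bp into the gene, over its coding exon, that was listed in WT1 at 3.06 and in the DKO libraries at 3.66, 3.87 and 3.86. With the WT2 and WT3 values set to the list floor, its log2 change was 1.14 (interval 0.30 to 1.97, unadjusted p = 0.0128 and adjusted p = 0.254, limma). That change, its interval and its p rest in part on the filled values.

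**Figure D4:**
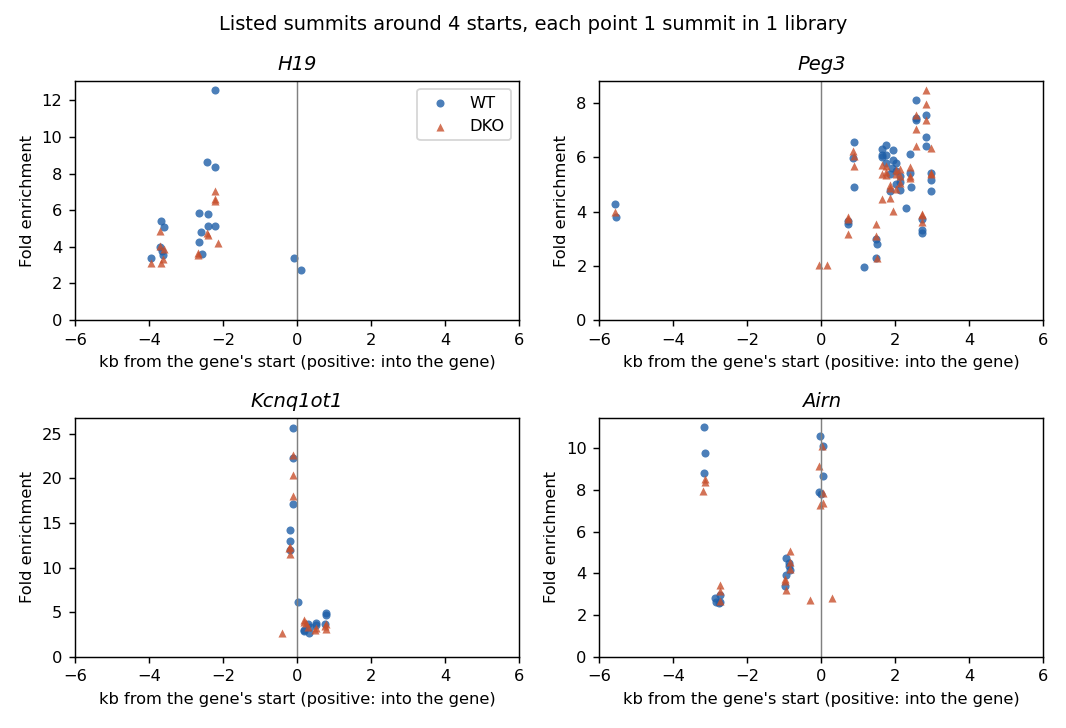
Listed summits within 6 kb of the starts of H19, Peg3, Kcnq1ot1 and Airn. The x axis is the distance from the start in kb, positive into the gene, the y axis the fold enrichment, and each point is 1 summit in 1 library (blue circles WT, orange triangles DKO). H19 summits gather in the control region upstream, Peg3 summits inside the first intron and the highest Kcnq1ot1 summits at the start, while Airn had high summits both at the start and about 3 kb upstream of it.

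At H19, a non-coding RNA transcribed from the maternal allele, every library listed summits in the control region, and only some did at the gene's own start. Within 0.5 kb of the start only WT1 and WT2 listed a summit, at 3.41 and 2.76. In the control region the libraries listed 5, 4 and 7 summits in WT and 6, 4 and 4 in DKO. The CTCF-type site at 2172 bp had a summit 37 to 50 bp away in each of the 6 libraries. Its window (chr7:142580115-142580615) had fold enrichments of 8.34, 5.17 and 12.6 in WT and 7.07, 6.63 and 6.51 in DKO, from pileups of 36, 22 and 58 against 30, 26 and 22. WT held both the lowest and the highest library, so the groups overlapped, and the log2 change was -0.08 (interval -0.54 to 0.38). The site at 2627 bp had a summit within 50 bp in WT1, WT3, DKO1 and DKO3 but not in WT2 or DKO2. The site at 3897 bp had one that near in WT3 alone, at 50 bp and a fold of 3.39, and DKO1 had one at 54 bp and 3.13. Its window was centred 3686 bp upstream, with folds of 3.76, 5.39 and 5.07 in WT and 4.04, 4.84 and 3.13 in DKO (log2 change -0.10, interval -0.74 to 0.55).

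Igf2, on the far side of that control region, had 5 windows and none at its starts. The strongest lay 8999 bp upstream (chr7:142675565-142676065) with folds of 9.88, 8.77 and 10.6 in WT and 8.64, 7.94 and 6.55 in DKO. Every WT value was above every DKO value as listed, but not after normalization, and the log2 change of -0.16 had an interval of -0.47 to 0.15.

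Peg3 also had its open sites inside the gene. Within 0.5 kb of the start the libraries listed 2 summits in all, both in DKO2 with folds of 2.04 and 2.05. Between 0.5 and 3.5 kb into the gene they listed 14, 15 and 13 in WT and 13, 13 and 14 in DKO, 82 in all. This is the stretch with the same-strand YY1 heptamers printed above. Of its 4 windows, the one nearest the start had folds of 5.99, 4.92 and 6.56 in WT and 5.68, 6.06 and 6.23 in DKO. Pileups there were 74 to 161 fragments, against 20 to 38 at the Plagl1 promoter, so the local background behind the fold (the pileup over the fold) was higher here. The window farthest in (chr7:6727360-6727860) had 6.41, 6.74 and 7.57 in WT and 7.97, 8.49 and 7.39 in DKO. WT3 lay above DKO3 as listed, the normalized values did not overlap, and the log2 change was 0.39 (interval 0.05 to 0.73, unadjusted p = 0.0274 and adjusted p = 0.348, limma).

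Usp29, a ubiquitin protease gene that starts next to Peg3 on the opposite strand, had 19 windows along 236.6 kb and none within 1 kb of a start. Its locus also takes in the Peg3 windows.

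Airn is the non-coding RNA that silences Igf2r, the receptor that clears IGF2, and starts in an Igf2r intron. Its promoter window (chr17:12741093-12741593), 32 bp from the start, had folds of 8.67, 7.80 and 10.6 in WT and 9.15, 7.84 and 10.1 in DKO. The group means were 9.01 ± 1.42 and 9.03 ± 1.14 (SD, n = 3), and the log2 change was 0.19 with an interval of -0.16 to 0.53, or 0.056 without DKO3. A window 3165 bp upstream of the Airn start had folds of 11.0, 8.80 and 9.78 in WT and 8.41, 8.55 and 7.95 in DKO, above those of the promoter window in WT1, WT2 and DKO2 (log2 change -0.05, interval -0.37 to 0.26). Igf2r itself had a window 845 bp into the gene with folds from 3.45 to 5.44 in WT and from 3.56 to 6.64 in DKO. A window 470 bp upstream of its start had folds of 6.17, 5.23 and 5.93 in WT and 3.85, 4.16 and 2.91 in DKO. All WT values were above all DKO values there, with a log2 change of -0.54 (interval -1.09 to 0.0041, unadjusted p = 0.0514 and adjusted p = 0.427, limma).

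Few summits were listed in the control region of the Dlk1 and Meg3 cluster. In the IG-DMR, 10 to 16 kb upstream of Meg3, the libraries listed 1, 1 and 0 summits in WT and 1, 0 and 2 in DKO. The window at chr12:109528130-109528630, whose centre held the 5 hexamers shown above, was listed in WT1 and WT2 at 4.96 and 3.42, and the window at chr12:109526040-109526540 in DKO1 and DKO3 at 3.35 and 3.28. Neither was listed in all libraries of a genotype, and each of these folds was below the median fold of its own library's list (4.35 to 5.07 in these 4). Dlk1, the preadipocyte factor, had from 0 to 2 summits per library between 0.5 kb upstream and its end. Its promoter window had folds of 3.80, 3.13 and 6.16 in WT and 4.19 and 4.26 in DKO1 and DKO3, with none in DKO2. Meg3, the maternal non-coding RNA of the cluster, had a promoter window in every library, at 7.38, 5.55 and 6.61 in WT and 4.67, 6.81 and 5.46 in DKO, and the groups overlapped (log2 change -0.03, interval -0.49 to 0.43).

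Rian, which hosts small nucleolar RNAs, had 12 windows, the best of them at chr12:109626877-109627377 with folds of 11.5, 9.70 and 14.4 in WT and 12.9, 13.3 and 11.0 in DKO (log2 change 0.24, interval 0.01 to 0.48, unadjusted p = 0.0435 and adjusted p = 0.407, limma). Those listed folds overlapped. The most open site of the cluster lay just downstream of Mirg, a host gene of microRNAs, at chr12:109749597-109750097. Folds were 23.8, 22.5 and 26.9 in WT and 23.8, 26.7 and 22.2 in DKO, with ranks between 998 and 2482. The log2 change of 0.09 had an interval of -0.11 to 0.29, and was 0.033 without DKO2. Dio3, the deiodinase that inactivates thyroid hormone, had a window 906 bp upstream of its start in 5 libraries, with folds of 3.96 and 6.37 in WT2 and WT3 and of 4.36, 4.53 and 4.88 in DKO.

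Mirg's downstream site and the strongest site in Grb10 both held the AP-1 heptamer TGANTCA near their centres. It is shown in capitals here, and was found in 33.3% of the windows of the loci and 36.6% of all windows.
Mirg downstream (chr12:109749747-109749947, plus strand): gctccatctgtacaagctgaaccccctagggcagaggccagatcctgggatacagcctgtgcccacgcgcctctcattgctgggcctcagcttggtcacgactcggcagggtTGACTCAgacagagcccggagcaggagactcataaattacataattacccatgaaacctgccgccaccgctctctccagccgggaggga
Grb10 distal intron (chr11:11939660-11939860, minus strand): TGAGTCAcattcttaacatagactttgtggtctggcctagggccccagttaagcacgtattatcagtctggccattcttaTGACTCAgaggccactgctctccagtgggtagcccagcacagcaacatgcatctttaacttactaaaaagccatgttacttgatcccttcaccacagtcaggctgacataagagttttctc

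Grb10 had 24 windows. The strongest (chr11:11939510-11940010) lay in an intron 30882 bp from the nearest annotated start, with folds of 23.0, 20.7 and 28.5 in WT and 23.4, 23.4 and 21.2 in DKO. The log2 change was 0.03 (interval -0.17 to 0.22). Of its 3 annotated starts, 1 had a window within 1 kb, with folds from 6.44 to 12 in WT and 5.00 to 8.47 in DKO. Ddc, the neighbouring decarboxylase gene, had 20 windows, and its promoter was listed in WT2 and DKO2 only, at 3.13 and 3.12.

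A Grb10 intron window, 15381 bp from the nearest start, had fold enrichments that did not overlap between genotypes. At chr11:12012340-12012840 these were 10.8, 9.39 and 13.5 in WT and 7.83, 7.09 and 5.24 in DKO, from pileups of 36, 32 and 45 against 27, 24 and 15. Every WT library was above every DKO library, with means of 11.2 ± 2.09 and 6.72 ± 1.33 (SD, n = 3). The log2 change was -0.57 (interval -0.90 to -0.23), with an unadjusted p = 0.00364 and an adjusted p = 0.172 (limma). The stretch has no CpG, and its 1 CCAAT is in capitals.
Grb10 intron (chr11:12012515-12012665, minus strand): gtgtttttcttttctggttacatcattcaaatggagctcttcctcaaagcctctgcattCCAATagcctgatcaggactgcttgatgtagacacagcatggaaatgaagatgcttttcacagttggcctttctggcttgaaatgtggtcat

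Plagl1, also called Zac1, a paternally expressed zinc finger gene, had the smallest p at the loci. Its promoter window (chr10:13090539-13091039, 47 CpG, over a UTR) was centred 1 bp from a start, with folds of 6.17, 5.16 and 9.39 in WT and 9.65, 9.15 and 8.39 in DKO. As listed, WT3 lay inside the DKO range and the other WT libraries below it. After normalization the groups did not overlap, and the log2 change was 0.62 (interval 0.27 to 0.97, unadjusted p = 0.00259 and adjusted p = 0.163, limma). An intron window of the same gene, 2431 bp downstream of its nearest annotated start (chr10:13093016-13093516), had values in the other direction. It was listed in the 3 WT libraries at 4.00, 4.47 and 4.37, from a pileup of 15 in each, and in no DKO library.

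Windows listed in all libraries of one genotype and in none of the other were few. There were 2 in WT only, 0.702% of the 285 against 1.23% of all windows, and 2 in DKO only, 0.702% against 1.14%. The other WT-only window lay in an intron of Sgce, the epsilon-sarcoglycan gene (chr6:4684679-4685179), with folds of 4.67, 4.55 and 3.82. One DKO-only window lay in the body of Kcnq1ot1, 29135 bp from its start (chr7:143267164-143267664), with folds of 3.47, 3.73 and 4.08. The other lay far inside Kcnq1, a potassium channel gene (chr7:143373216-143373716), with 4.65, 3.35 and 2.88. Pileups at all 4 sites were 9 to 17 fragments, close to the lowest listed in any library (8 to 12). With the absent values set to the list floor, the log2 changes were -1.43 at Sgce, -1.40 at Plagl1, 1.38 at Kcnq1ot1 and 1.27 at Kcnq1, with adjusted p of 0.166, 0.166, 0.167 and 0.201 (limma). The 3 absent values of each are the floor, so the direction and the small spread in that genotype come from how the windows were chosen and filled, and no p here is evidence of a change. For the same reason nothing is read from a fit without the trend in variance, in which these 4 passed the threshold, 1.4% of the 285 windows against 2.31% of all windows. With the pileup in place of the fold the changes were smaller, at -0.40, -0.48, 0.48 and 0.37 in the same order. The central sequences follow, with the AP-1 heptamer TGANTCA in capitals in Sgce, Kcnq1ot1 and Kcnq1 and the YY1 heptamer CCATNTT in Plagl1.
Sgce intron (chr6:4684854-4685004, minus strand): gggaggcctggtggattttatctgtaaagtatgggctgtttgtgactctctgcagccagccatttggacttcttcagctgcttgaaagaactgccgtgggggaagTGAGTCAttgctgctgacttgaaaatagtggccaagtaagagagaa
Plagl1 intron (chr10:13093191-13093341, plus strand): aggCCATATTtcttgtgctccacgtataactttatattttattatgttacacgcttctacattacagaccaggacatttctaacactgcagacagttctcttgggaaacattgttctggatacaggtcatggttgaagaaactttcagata
Kcnq1ot1 body (chr7:143267339-143267489, minus strand): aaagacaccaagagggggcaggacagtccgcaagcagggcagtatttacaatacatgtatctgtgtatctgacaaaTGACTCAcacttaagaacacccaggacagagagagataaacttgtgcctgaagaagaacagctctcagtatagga
Kcnq1 intron (chr7:143373391-143373541, plus strand): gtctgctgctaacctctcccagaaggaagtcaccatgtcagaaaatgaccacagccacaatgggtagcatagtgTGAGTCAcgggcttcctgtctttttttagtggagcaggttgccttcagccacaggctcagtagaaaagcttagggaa

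Among the further windows with small p, a second Kcnq1 intron window (chr7:143349761-143350261) was listed in WT1 and WT3 at 3.50 and 4.70 and in DKO at 4.47, 6.52 and 5.57. At Impact, a regulator of translation under stress, a window beyond the 3′ end of the gene, 29688 bp from the start, had folds of 8.76, 5.98 and 9.56 in WT and 4.47, 4.82 and 4.59 in DKO, all WT values above all DKO values (log2 change -0.59, adjusted p = 0.213, limma). A window in an Impact intron, 2507 bp downstream of the same start, had 5.23, 5.34 and 5.32 in WT and 7.30, 6.26 and 6.86 in DKO, all DKO values above all WT values (log2 change 0.54, adjusted p = 0.299, limma).

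The complex Gnas locus, which encodes the G protein alpha subunit and several transcripts from one parent each, had windows at all 7 of its annotated starts. The Nesp start had a window 101 bp upstream with folds from 4.78 to 9.50 in WT and 5.18 to 7.21 in DKO. The window 287 bp upstream of an inner start (chr2:174327231-174327731, 40 CpG) had 7.49, 5.39 and 6.75 in WT and 8.19, 7.82 and 6.69 in DKO. Those listed values overlapped, with a log2 change of 0.40 (interval 0.04 to 0.77, unadjusted p = 0.0344 and adjusted p = 0.376, limma). The next window, 423 bp upstream of the main coding start, had 8.80, 7.81 and 9.67 in WT and 5.40, 8.26 and 6.55 in DKO (log2 change -0.21, interval -0.59 to 0.18, and -0.047 without DKO1 or -0.33 without DKO2). Nespas, the antisense transcript, had folds from 4.28 to 7.40 in WT and 4.32 to 5.66 in DKO at its start.

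The remaining promoters are given by their ranges. Mest was listed at 9.08 to 11.5 in WT and 7.80 to 10.2 in DKO, at a window upstream of its inner start. Ube3a, the ubiquitin ligase lost in Angelman syndrome, was at 11.6 to 15.7 in WT and 11.9 to 14.4 in DKO, and Blcap, which surrounds Nnat, at 14.7 to 16.7 and 13.5 to 17.1. Nap1l5, a histone chaperone-like gene, was at 6.72 to 14.7 and 6.15 to 8.19. Peg10 and Sgce, which start head to head, shared a window at 3.35 to 5.01 and 3.76 to 6.07. All of these ranges overlapped between genotypes. Impact values did not overlap at the basic-set start as listed, 3.44 to 3.80 in WT against 2.16 to 2.57 in DKO, with a log2 change of -0.44 whose interval was -1.22 to 0.33. A window at the outer start of Impact, 16150 bp upstream of that start, was far more open, with folds of 18.7, 12.1 and 18.8 in WT and 15, 14.4 and 14.9 in DKO. These overlapped, and the log2 change was 0.0037 (interval -0.27 to 0.28).

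Snrpn, Magel2 and Mkrn3, genes of the Prader-Willi cluster that are active mainly in neurons, each lacked a summit at the start in 1 library or more. Snrpn was listed at its start in 5 libraries, from 3.42 to 5.87. Magel2 had a promoter window in 3 libraries, from 3.40 to 3.82, and Mkrn3 in 2, WT1 at 5.26 and DKO1 at 6.71. Ndn, the antiproliferative gene necdin, had 1 window, over its UTR, 1742 bp from the start, at 11.4, 8.54 and 16 in WT and 10.1, 9.64 and 10.5 in DKO (log2 change -0.03, interval -0.36 to 0.29). Rasgrf1 had a promoter window in 3 libraries, its upstream region 1 in 4 libraries (2.95 to 6.16), and a window 3047 bp upstream of its start in all 6, at 9.55, 8.23 and 9.46 in WT and 10.2, 11.1 and 9.33 in DKO (log2 change 0.35, adjusted p = 0.304, limma). Slc38a4, an amino acid transporter gene, had a promoter window in 3 libraries from 3.08 to 3.60. Zdbf2, a zinc finger gene, had no window, and 1 summit in WT2 was all that its locus listed.

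Germline control regions that double as promoters were counted as a list of 16 genes. Of these 14 had a promoter window, 13 different ones, and none passed the test in either direction. Their log2 changes were below 0 in 7 and above 0 in 6, with a median of -0.06. The window kept for a gene was its most open one, which at Inpp5f, Grb10 and Gnas is not the methylated start itself. At Gnas the kept window had a log2 change of -0.21 and the window 287 bp upstream of the inner start one of 0.40, so these counts depend on that choice.

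Genes that set or keep imprints were also read at their promoters. Of 22 such regulators 18 had a promoter window, all listed in all 6 libraries, and none passed the test, with a median change of 0.03. Dppa3, Ctcfl, Tet1 and Zfp42 had none. Zfp57, the reader of methylated imprints, was at 11.0, 10.1 and 11.5 in WT and 9.51, 10.8 and 9.35 in DKO (log2 change 0.05, interval -0.23 to 0.32). Zfp445, a second zinc finger reader, was at 14.5, 12.9 and 18.6 in WT and 11.2, 12.8 and 9.47 in DKO. Its WT libraries were all above its DKO libraries, though the lowest WT value (12.87) and the highest DKO value (12.85) almost touched, with a log2 change of -0.29 (interval -0.54 to -0.04, unadjusted p = 0.0268 and adjusted p = 0.345, limma). Ctcf was at 3.34 to 6.06 and 3.83 to 4.11, and Yy1 at 18.3 to 23.9 and 18.2 to 20.7, in WT and DKO in that order. Dnmt1, which copies DNA methylation, was at 13 to 13.9 and 11.3 to 13 (log2 change -0.01, interval -0.30 to 0.29).

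A second list of 36 imprinted genes outside the 38 gave 25 promoter windows, of which none passed the test, 12 changed below 0 and 13 above, and the median change was 0.01. The smallest p among them was at Tssc4, in the Kcnq1 cluster, with folds of 15.7, 13.6 and 17.2 in WT and 16.9, 19.3 and 15.6 in DKO (log2 change 0.30, adjusted p = 0.238, limma).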

How the data were processed

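ATAC-seq libraries (omni-ATAC) were sequenced from the preadipocytes at day 0. The submitters' processing notes name bcl2fastq 2.17, cutadapt 1.18, Bowtie2 2.3.4.3, MACS2 (version not given in the sources used here) and the mm10 build. The methods state MACS2 with default settings, while the deposited lists carry 299433 to 299620 summits each, called separately in each library. Whether reads were shifted for Tn5 is not given in the sources used here. Each list holds the fold enrichment (a linear ratio of pileup to local background) and the −log10 p of every summit, as the authors deposited them. Read totals are not part of these lists, so depth was taken from the pileup at each summit, solved from the fold and the p, which came out whole (within 0.05) for 100% of summits. Counting error alone is therefore large at summits of 10 to 20 fragments.

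From these, windows of about 0.5 kb were laid around summits in order of rank and kept where 2 or more lists held a summit there at a −log10 q above 2. A library without a summit in a window was given the lowest fold of its list. The log2 folds were quantile-normalized and fitted with limma 3.58.1 in R 4.3.3 (trend in the empirical Bayes step) over all 179248 windows with 3 WT and 3 DKO libraries, and p-values were adjusted by Benjamini and Hochberg over all windows. The fit was tested on simulated data with the same spread in every window and no missing values to fill. That setting is easier than these data, so its outcome does not carry over to the windows here. Annotation was GENCODE M21 (basic set) and sequence GRCm38.

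The windows named were, for each gene, the most open window within 1 kb of a start, the windows of the H19, Dlk1-Meg3 and Rasgrf1 control regions and of the starts of Gnas, Nespas, Grb10, Inpp5f, Airn, Kcnq1ot1 and Peg3, those passing the test, the 10 with the smallest p, and the best-ranked of each locus. Others (at Igf2, Ndn, Rian and Rasgrf1, upstream of Airn, Igf2r and Impact, and the Peg3 windows with YY1 heptamers) were chosen after their values were seen. The genes and lists were chosen with earlier results of these data known. Alternatives were another scaling or none, no variance trend, windows listed in all 6 libraries, −log10 p or pileup in place of the fold, a common floor, the 50000 best summits, 2 kb or no flanks, each library left out, and the replicate number as a block.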

Additional observations from a re-analysis of the deposited data

How the results depend on the processing

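Calls at the imprinted loci stayed at 0 lower and 0 higher in DKO under every alternative run but one. Without the variance trend there were 2 lower and 2 higher, the 4 windows listed in a single genotype, 1.4% of the 285, while 4136 of all windows (2.31%) then passed in place of 106. Their absent values were set to the list floor. With pileup in place of the fold the log2 changes of these 4 were -0.40 (Sgce), -0.48 (Plagl1), 0.48 (Kcnq1ot1) and 0.37 (Kcnq1), against -1.43, -1.40, 1.38 and 1.27. The median log2 change of the loci, 0.03, was -0.12 with no scaling, which moved the median of all windows to -0.14. Leaving out 1 library gave medians from 0.0142 (without WT3) to 0.0622 (without DKO3), and 0 calls in each direction. The summit number differed by 1.67 (DKO minus WT) with all libraries and by -1 to 7 with 1 left out, turning to -1 without WT1 and without WT3.

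Of 599 values of named windows under alternatives, 561 had the main direction and the same call, 4 passed the threshold (the fit without trend) and 34 turned direction, none of them past that threshold. The log2 changes that turned, with no cause tested, were as follows. With no scaling, Kcnq1ot1 promoter was -0.077, Blcap -0.045, the Mirg downstream window -0.012, the distal Grb10 intron -0.074 and the Airn intron -0.014. With median centring, Ddc was 0.15 and Inpp5f 0.016. With −log10 p in place of the fold, Dlk1 was 0.092 and Kcnq1ot1 -0.027, and with pileup Dlk1 was 0.12, Peg3 -0.021 and Kcnq1ot1 -0.031. With 1 library left out, the promoter ranges were -0.62 to 0.22 at Dlk1, -0.15 to 0.11 at Meg3, -0.76 to 0.26 at Rian, -0.14 to 0.011 at Mest, -0.42 to 0.020 at Grb10, -0.37 to 0.35 at Ddc, -0.036 to 0.080 at Kcnq1ot1, -0.34 to 0.021 at Slc22a18, -0.76 to 0.22 at Snrpn, -0.57 to 0.73 at Mkrn3 and -0.35 to 0.10 at Nap1l5. They were -0.30 to 0.11 and -0.25 to 0.10 at the first and second window of the H19 control region and -0.0047 to 0.072 at the distal Grb10 intron.

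With the replicate number as a block (replicate block), 0 windows at the loci and 0 of all windows were called. Same-numbered libraries did not deviate together (correlations 0.0054, -0.011 and -0.0072), so the numbers were taken not to pair the samples.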
